A study of Mus musculus with 5 samples.

Results

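RNA Polymerase II binding at the genes of the BCL2 family, which set the balance between survival and death of a cell, was examined in mouse Th2 cells with and without PARP-14. The 9 genes were chosen by name: the anti-apoptotic *Mcl1*, *Bcl2* and *Bcl2l1*, the effectors *Bax* and *Bak1*, and the BH3-only genes *Bcl2l11*, *Bid*, *Bbc3* and *Pmaip1*. Among the 11608 genes of the deposited table, each of the 9 had a row whose name and mm9 coordinates both fit the gene.

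Proteins of this family act at the outer membrane of mitochondria. BAX and BAK1 permeabilise that membrane and release cytochrome c, BCL2, BCL-XL (from *Bcl2l1*) and MCL1 hold them in check, and the BH3-only proteins carry stress signals to both groups. In T cells, cytokines such as IL-2 and IL-4 sustain the anti-apoptotic members, and BIM, the product of *Bcl2l11*, is a main trigger of death when cytokines are withdrawn.

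Naive CD4+ T cells of C57BL6 mice were taken from the spleens of young adult *Parp14*+/+ and *Parp14*-/- animals. They were activated through CD3 and CD28 under Th2 conditions, with IL-4 at 10 ng/ml and an antibody against IFN-γ, for 3 days, and then expanded in IL-2 and IL-4 for 4 days. PARP-14 is an ADP-ribosyltransferase known as a cofactor of STAT6, the transcription factor that IL-4 activates, and PJ34 inhibits enzymes of the PARP family. Cells of each genotype were left untreated or given PJ34, which made 4 conditions, named *Parp14*+/+, *Parp14*+/+ + PJ34, *Parp14*-/- or *Parp14*-/- + PJ34. Values listed without names follow that order. For PJ34, the labels give a dose of 10 µM, while the study's methods state another dose. Each condition had 1 library, made with an antibody against polymerase phosphorylated on serine 2, the form that elongates transcripts, and a shared Input library was a mixture of both genotypes. There were no replicates, so no test between conditions was made, and whether mice were pooled is not given in the sources used here.

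The value of a gene is its average peak height, the highest pile-up of overlapping fragments in each active region, averaged over the gene's active regions. Active regions are SICER intervals, the stretches enriched over Input, merged across libraries, and they can reach past a gene into its neighbours. Intervals given with a height or ratio are 95% counting intervals of the heights summed over active regions, and they cover counting error only. The libraries had been brought to equal depth by the authors, and held 11692, 12014, 10228 and 8841 intervals. The median height of an interval was 9 in each library, while the covered length was 98.1 Mb, 82.4 Mb, 73.8 Mb and 65.6 Mb in that order.

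The *Parp14* gene itself was read first, as a check of the labels. Heights averaged 8.0 without and 11 with PJ34 in *Parp14*+/+ cells, and 6.67 in both *Parp14*-/- libraries. Intervals covered 59.2% of the gene in *Parp14*+/+ and 53.9% in *Parp14*+/+ + PJ34, against 6.95% in *Parp14*-/- and 8.51% in *Parp14*-/- + PJ34, where a single interval lay at the start of the gene. That interval reached a height of 13 in both *Parp14*-/- libraries, above the tallest interval in the gene in *Parp14*+/+, at 9, and *Parp14*+/+ + PJ34, at 11. Cover along the gene was thus lower in both libraries labelled *Parp14*-/-, and the part of the gene that was removed is not given in the sources used here.

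Th2 markers were present in the 4 libraries. Of 8 Th2 markers 7 had an interval in each library, and their summed height was 368 with PARP-14 and 320 after PJ34, against 312 without PARP-14 and 255 after PJ34, with *Il4ra*, at 132 in *Parp14*+/+ and 160 in *Parp14*-/-, the highest. The cytokine genes among them were lower without PARP-14, with and without PJ34: *Il4* stood at 61, 39, 29 and 18, *Il5* at 21, 21, 4 and 6, and *Il13* at 38, 33, 17 and 10. *Il1rl1* was highest in *Parp14*-/-, at 6, 8, 12 and 9. The 8 T cell markers, led by *Cd28*, summed to 87.5, 106.5, 87 and 73 in that order, and 5 of them had an interval in each library. The 4 Th1 markers with a row, led by *Il12rb2* at 37, summed to 92, 73.5, 80 and 63.5, with *Il18r1* highest in *Parp14*-/-, at 5, 6.5, 8 and 7.5. Of 5 B cell markers only *Cd79a*, at 38 in *Parp14*+/+, had an interval in each library, and the list summed to 55.5, 55, 51 and 45.5. *Cd8a* stood at 4, 6, 3 and 4 with no interval, and neither NK cell marker had an accepted row. The myeloid *Itgam* and *Csf1r* together stood at 9, 12.5, 6 and 7.5. *Csf1r* had an interval in each library but *Parp14*-/-, and *Itgam* in none. The part of these other cells in the values below was not tested.

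*Mcl1* had the highest average peak height of the family in each library. Its average peak height was 49 (36.3 to 64.8) with PARP-14 and 58 (44.0 to 75.0) after PJ34, against 72 (56.3 to 90.7) without PARP-14 and 75 (59.0 to 94.0) after PJ34. In *Parp14*+/+ this placed it above 98% of the genes with an interval in at least 1 of the 4 libraries. Both libraries without PARP-14 were above both libraries with it, and their counting intervals overlapped.

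*Bcl2l1* came next, at 24 (15.4 to 35.7) with PARP-14 and 35 (24.4 to 48.7) after PJ34, against 29 (19.4 to 41.7) without PARP-14 and 25 (16.2 to 36.9) after PJ34. The step from *Mcl1* to *Bcl2l1* was beyond counting error in each library, with a ratio of 2.04 (1.23 to 3.48) in *Parp14*+/+ and 3 (1.89 to 4.93) in *Parp14*-/- + PJ34. *Bcl2*, the founding member of the family, had a low average height of 7.58 (6.11 to 9.31) with PARP-14 and 7.25 (5.81 to 8.94) after PJ34, against 11.2 (9.36 to 13.2) without PARP-14 and 8.17 (6.63 to 9.95) after PJ34. That value is a mean over 12 active regions, against 1 region each for *Mcl1* and *Bcl2l1*.

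Of the effectors, *Bax* stood at 20 with PARP-14 and 25 after PJ34, against 15 without PARP-14 and 20 after PJ34, and *Bak1* at 10, 8, 7 and 8.5 in the same order. For *Bax* the highest value was in *Parp14*+/+ + PJ34 and the lowest in *Parp14*-/-, and the counting intervals of these libraries overlapped.

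Of the BH3-only genes, *Bcl2l11* was at 9.5 (5.72 to 14.8) in both *Parp14*+/+ libraries, 17 (11.8 to 23.8) in *Parp14*-/- and 15 (10.1 to 21.4) in *Parp14*-/- + PJ34. *Pmaip1*, which encodes NOXA, an antagonist of MCL1, was at 9 (4.12 to 17.1) with PARP-14 and 14 (7.65 to 23.5) after PJ34, against 11 (5.49 to 19.7) without PARP-14 and 22 (13.8 to 33.3) after PJ34. *Bcl2l11* was thus higher in the libraries without PARP-14, and *Pmaip1* higher in the libraries with PJ34. *Bbc3*, which encodes PUMA, a target of p53, was at 10, 12, 11 and 6, with an interval in *Parp14*+/+ + PJ34 alone. *Bid*, whose product is cleaved by caspase-8 downstream of death receptors, was the lowest member in each library, at 5.67, 5, 6 and 5.67, and had an interval in the untreated libraries and in neither PJ34 library.

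In the order of heights within each library, only neighbours were compared. Besides the step from *Mcl1* to *Bcl2l1*, the neighbours that differed beyond counting error were *Bcl2l1* and *Bcl2l11* in *Parp14*-/-, with a ratio of 1.71 (1.003 to 2.88). The intervals were not adjusted for the number of steps compared, and the lower end of 1.003 lies close to 1.

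**Figure D1:**
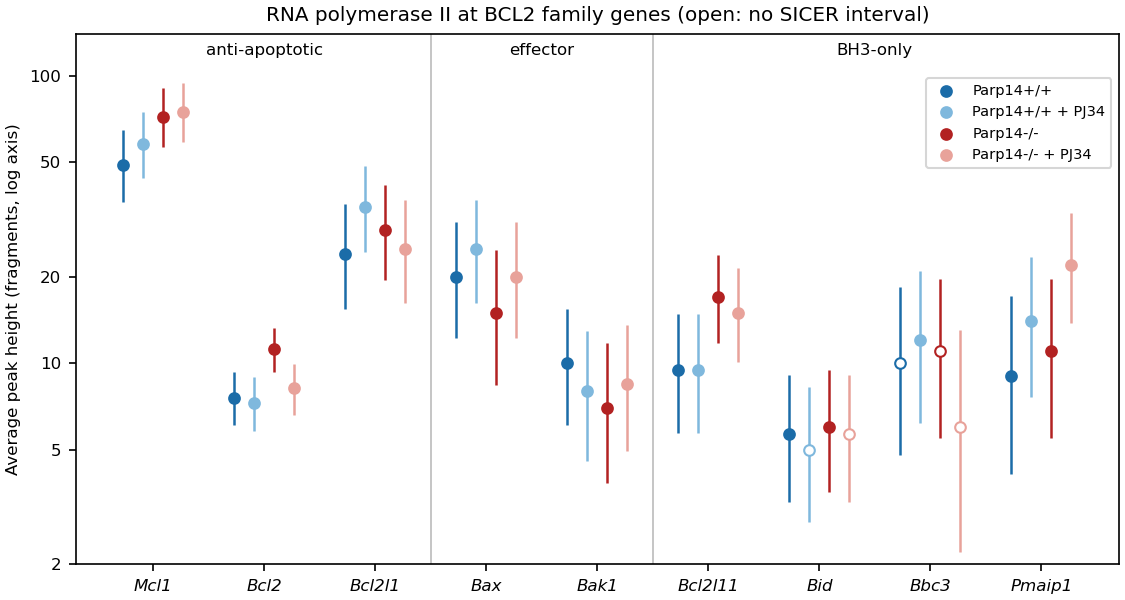
Average peak height (fragments, log axis) of the 9 genes in the 4 libraries, with 95% counting intervals as lines and open circles where the library had no SICER interval at the gene. *Mcl1* is highest in each library, from 49 in *Parp14*+/+ to 75 in *Parp14*-/- + PJ34, and *Bid* lowest, between 5 and 6.

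The untreated pair asks what loss of PARP-14 does without the inhibitor. Ratios are *Parp14*+/+ over *Parp14*-/-, so that a value below 1 means more polymerase without PARP-14, and a gene was counted as higher or lower when its ratio was above 1.4 or below 0.7 with an interval in the higher library. *Mcl1* had a ratio of 0.681 (0.464 to 0.992), *Bcl2* of 0.679 (0.515 to 0.893) and *Bcl2l11* of 0.559 (0.301 to 1.01), so that 3 of the 9 genes were higher in *Parp14*-/-, against 8.99% of the 8551 genes with an interval in at least 1 library. *Bak1* alone was higher in *Parp14*+/+, with a ratio of 1.43 (0.686 to 3.06), against 11.0% of these genes. The counting interval left out 1 for *Mcl1* and *Bcl2*, that is for 2 of the 9 genes, against 3.10% of all genes.

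*Mcl1*, *Bcl2* and *Bak1* lay close to the limits. Where the tallest interval in the gene replaced the average height, *Bak1* had no ratio and could not be counted, because no interval of *Parp14*+/+ reached the gene. With a pseudocount of 1 neither *Bcl2*, at 0.705, nor *Bak1*, at 1.375, was counted. The other members did not pass the limits: *Bcl2l1* had a ratio of 0.828 and *Bax* of 1.33, and the BH3-only *Pmaip1*, *Bbc3* and *Bid* had 0.818, 0.909 and 0.945. The median ratio over the 9 genes was 0.828, and 7 were below 1, beside a median of 1 over all genes.

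The PJ34 pair asks the same of cells given the inhibitor, and it shares no library with the untreated pair. *Bcl2l11*, at 0.633 (0.337 to 1.16), and *Pmaip1*, at 0.636 (0.301 to 1.30), were higher in *Parp14*-/- + PJ34, that is 2 of the 9 genes, against 4.58% of all genes. *Bbc3*, at 2 (0.695 to 6.50), was higher in *Parp14*+/+ + PJ34, against 19.8% of all genes. *Mcl1* had a ratio of 0.773 (0.539 to 1.10) and *Bcl2* of 0.887 (0.657 to 1.197), on the same side of 1 as without the inhibitor but within the limits. *Bcl2l11* was thus the member past the limits to the same side in both genotype pairs, against 1.17% of all genes that were higher without PARP-14 in both. *Mcl1* joined it when libraries were scaled to their median ratio, at 0.681 and 0.674, and *Bcl2* when the tallest interval in the gene was used, at 0.48 and 0.588.

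*Bcl2l1* stood at 1.4 (0.814 to 2.44), exactly at the upper limit and not above it, and *Bax* at 1.25. The median over the 9 genes was 0.887, with 6 below 1, where all genes had a median of 1.14. The *Parp14*-/- + PJ34 library was lower across the genome, by a median log2 ratio of 0.19 in this pair. When each library was scaled to a median ratio of 1, *Mcl1* had a ratio of 0.674 and joined *Bcl2l11* and *Pmaip1* below the limit, and the calls over all genes went from 1690 higher and 392 lower in *Parp14*+/+ + PJ34 to 949 and 818. Before scaling, the counting interval left out 1 for 0 of the 9 genes, against 3.48% of all genes. No counting interval is given for the scaled ratios.

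The effect of PJ34 in cells with PARP-14 was read from the ratio of *Parp14*+/+ to *Parp14*+/+ + PJ34. *Pmaip1*, at 0.643 (0.245 to 1.60), and *Bcl2l1*, at 0.686 (0.390 to 1.19), were higher with PJ34, 2 of the 9 genes against 9.23% of all genes, and 0 of the 9 were lower with PJ34, against 6.23%. After median scaling *Bcl2l1* had a ratio of 0.716 and no longer passed. The median over the 9 genes was 0.845, beside 0.958 over all genes, and the counting interval left out 1 for 0 of them, against 1.61% of all genes.

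In cells without PARP-14, *Pmaip1* was higher with PJ34, at 0.5 (0.219 to 1.08), the only 1 of the 9 genes past that limit, against 4.01% of all genes. None passed the upper limit, against 11.4% of all genes. *Bcl2* had a ratio of 1.37 (1.05 to 1.79), lower with PJ34 and just within the limits, and it was the 1 member whose counting interval left out 1, against 1.66% of all genes. After median scaling the ratio of *Bcl2* was 1.24, closer to 1, and no counting interval is given for that value. *Bbc3* had a ratio of 1.83 (0.622 to 6.04) but no interval in *Parp14*-/-. The median over the 9 genes was 1.06, beside 1.08 over all genes, and it was 0.962 after median scaling, when *Bid* moved from 1.06 to 0.962. With that scaling *Bax*, at 0.682, joined *Pmaip1* below the limit, against 6.82% of all genes, and 6.64% of all genes passed the upper limit. Both PJ34 pairs share a library with each genotype pair, so their ratios are not separate evidence.

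**Figure D2:**
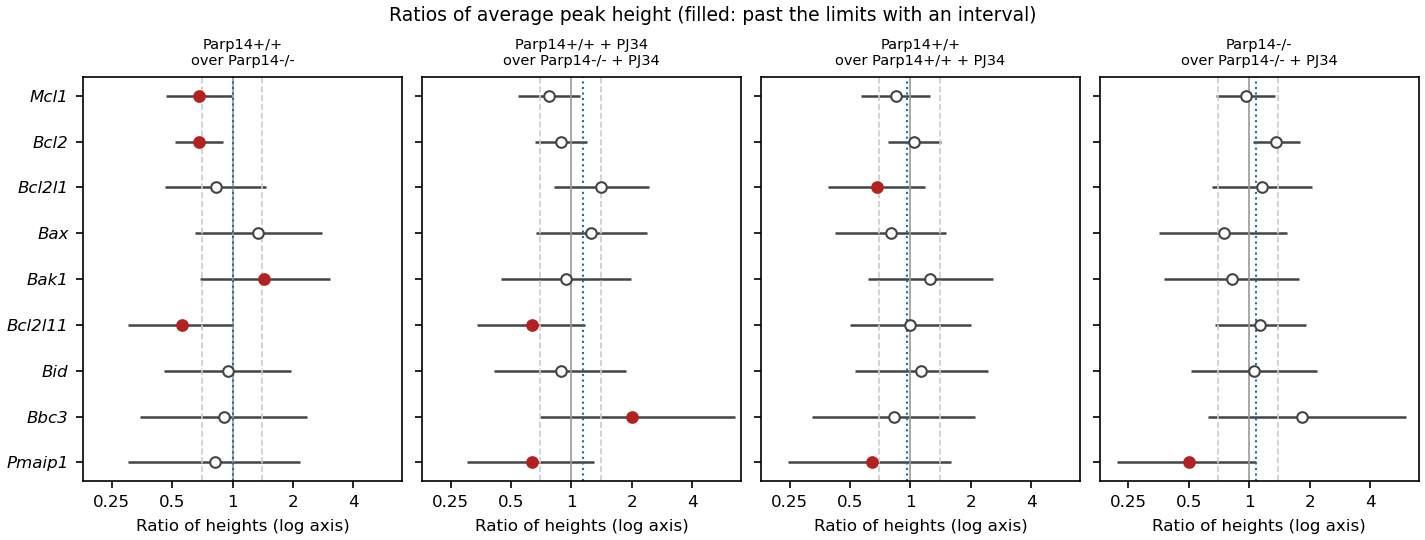
Ratios of average peak height (log axis) of the 9 genes in the 4 pairs of libraries, with 95% counting intervals as lines, the limits of 0.7 and 1.4 as dashed lines and the median over all genes as a dotted line. Filled points passed a limit with an interval in the higher library. *Bcl2l11* is filled in both genotype pairs and *Pmaip1* in both PJ34 pairs.

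The intervals along the genes gave a view by position. Gene coordinates below are those of the deposited table, and distances from a gene's start or end are taken from its GENCODE gene. *Bcl2* (gene 12043, chromosome 1, 108434756 to 108610867, minus strand) is long, with its coding part split by an intron that takes up most of its 176112 bp. Intervals covered 21.6% of the gene in *Parp14*+/+ and 15.5% in *Parp14*+/+ + PJ34, against 81.4% in *Parp14*-/- and 57.9% in *Parp14*-/- + PJ34. They numbered 7, 5, 15 and 12 in that order, and the end of the gene was covered only in the libraries without PARP-14. The cover was 3.76 times longer without PARP-14 in the untreated pair and 3.75 times longer in the PJ34 pair.

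*Bcl2l11* (gene 12125, chromosome 2, 127951774 to 127988283, plus strand) had the same contrast. With PARP-14, intervals covered 28.8% of the gene untreated and 44.4% after PJ34. Without it they covered 97.1% and 90.6%. The start of the gene was covered in both *Parp14*-/- libraries and in neither *Parp14*+/+ library. These genes stood against the general direction, since the libraries without PARP-14 covered less of the genome.

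Cover longer than the limit allows (a ratio below 0.7) was found in *Parp14*-/- for *Bcl2*, *Bcl2l11* and *Bak1*, against 15.9% of the 6753 genes with cover in either library of the untreated pair. At *Bak1* the cover in *Parp14*-/- was only 294 bp, 3.34% of the gene, against 0 in *Parp14*+/+. In the PJ34 pair cover longer without PARP-14 was found for *Bcl2* and *Bcl2l11*, against 18.5% of 6535 genes. Cover longer with PARP-14 was more common, at 48.8% of genes in the untreated pair and 46.3% in the PJ34 pair. Among the members it was found for *Bax* in the untreated pair, and for *Bax*, *Bak1* and *Bbc3* in the PJ34 pair.

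The tallest point of *Bcl2* was at nearly the same base in both *Parp14*-/- libraries. It lay in the intron, 113346 bp from the gene start in *Parp14*-/- with a height of 25 and 113282 bp from it in *Parp14*-/- + PJ34 with a height of 17. The tallest interval in the gene reached 12 in *Parp14*+/+ and 10 in *Parp14*+/+ + PJ34. In *Bcl2l11* the tallest interval reached 9 with PARP-14 and 10 after PJ34, against 22 without PARP-14 and 19 after PJ34. The point of 9 in *Parp14*+/+ lay 246 bp past the gene end, and the intervals with their highest point in the gene reached 7 and 6. Each is below the gene's average height of 9.5 in that library, so the place of its points is not fully known.

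The genome sequence at the tallest point of *Bcl2*, read from NCBIM37 (the assembly of mm9) on the plus strand, is shown because both *Parp14*-/- libraries peak there. The window, chr1:108497405-108497605, is 201 bases long and centred on the highest point in *Parp14*-/-, and the 65 bases from that point to the highest point in *Parp14*-/- + PJ34 are in capitals. It holds no annotated exon. Both libraries with PARP-14 also had an interval over this window, with a height of 10 untreated and 8 after PJ34. Those heights were reached outside the window, at bases 108498113 and 108498977, so they are not heights at the window.
Bcl2: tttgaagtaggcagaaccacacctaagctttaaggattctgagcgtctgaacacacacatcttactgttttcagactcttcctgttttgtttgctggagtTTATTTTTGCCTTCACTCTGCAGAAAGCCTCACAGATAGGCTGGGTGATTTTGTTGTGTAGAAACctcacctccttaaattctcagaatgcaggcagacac
The palindromic letters of STAT sites, TTCNNNGAA and TTCNNNNGAA, were searched in this window, and each reads the same on both strands. The window held TTCNNNGAA once, from base 108497584, outside the capitals, and did not hold TTCNNNNGAA. Of 10228 windows of this length centred on the highest points in *Parp14*-/-, 6.20% held TTCNNNGAA and 5.19% held TTCNNNNGAA.

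*Mcl1* (gene 17210, chromosome 3, 95462643 to 95467102, plus strand) was covered over its whole length in each library by an interval of 28950 to 34500 bp that also reached *Adamtsl4*. The highest point lay in the first exon, 110 bp from the gene start, in *Parp14*+/+. It lay 1158 bp past the gene end in *Parp14*+/+ + PJ34, 966 bp past it in *Parp14*-/- and 1158 bp past it in *Parp14*-/- + PJ34. The ratios of *Mcl1* thus compare points at opposite ends of the gene in the untreated pair. *Adamtsl4* stood at 28.5, 33, 40 and 41 in the order used above. The active region of *Mcl1* also touches *Adamtsl4*, so these heights are not separate from those of *Mcl1*.

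**Figure D3:**
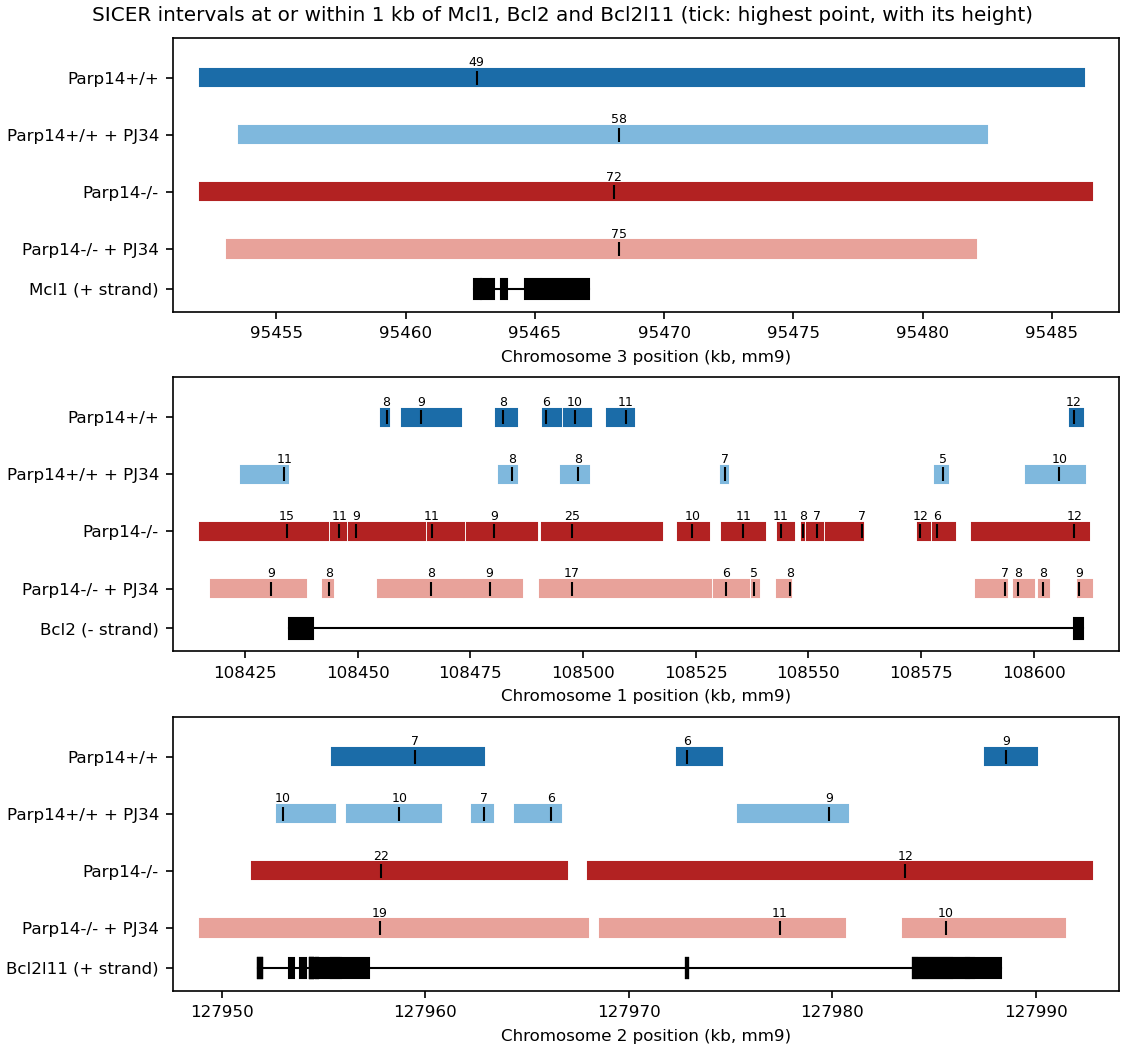
SICER intervals of the 4 libraries (bars) at or within 1 kb of *Mcl1*, *Bcl2* and *Bcl2l11* on mm9, with exons of each gene as black boxes, and a tick with its height at the highest point of each interval. *Bcl2* is covered over 21.6% of its length in *Parp14*+/+ and 81.4% in *Parp14*-/-, and *Bcl2l11* over 28.8% and 97.1%.

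Several members share their signal with a neighbour. *Bcl2l1* (gene 12048, chromosome 2, 152606404 to 152657418, minus strand) had the same 4 heights as *Cox4i2*, which the same active region touches, and as *Id1* nearby, and its highest point lay past the end of these coordinates in each library, in an intron of the longer gene that GENCODE gives (152593052 to 152657464). *Bax* (gene 12028, chromosome 7, 52717065 to 52722268, minus strand) had the same 4 heights as *Ftl1*, which encodes ferritin light chain, and its region also touched *Gys1*. The highest point lay past the end of *Bax* in each library, by 1800 to 4360 bp, so that the height cannot be assigned to *Bax*. The start of *Bax* was covered in both *Parp14*+/+ libraries and in neither *Parp14*-/- library, and intervals covered 100% of it with PARP-14 against 25.7% in *Parp14*-/- and 22.8% in *Parp14*-/- + PJ34.

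*Bak1* (gene 12018, chromosome 17, 27156757 to 27165571, minus strand) had 1 interval in or beside it in each library, with its highest point past the gene end, by 1266 to 1698 bp and within *Ggnbp1*. In *Parp14*+/+ no interval reached into *Bak1*, and the height of 10 there comes from active regions that were drawn with the other libraries included. Of the summed heights behind its ratio of 1.43, the points past the gene end gave 12 of 20 in *Parp14*+/+ and 7 of 14 in *Parp14*-/-. At the 5′ end of *Bcl2* the row of LOC100042085 stood at 12, 10, 12 and 9, and the active regions of *Bid* also touched the row at the *Bcl2l13* locus, at 4, 3.25, 3.5 and 4.67.

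At *Bid* (gene 12122, chromosome 6, 120843137 to 120866838, minus strand) the interval covered the gene start and 8.81% of the gene in *Parp14*+/+ and 7.54% in *Parp14*-/-. At *Bbc3* (gene 170770, chromosome 7, 16894987 to 16903683, plus strand) the interval of *Parp14*+/+ + PJ34 covered 60% of the gene. At *Pmaip1* (gene 58801) the interval of *Parp14*+/+ reached 8, in an exon 4783 bp from the start, below the gene's height of 9, whose place is not known. In the other libraries the highest point was within 50 bp of the start, with a height of 14 after PJ34 with PARP-14, and without PARP-14 of 11 untreated and 22 after PJ34. The gene start was covered in these 3 libraries and not in *Parp14*+/+.

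*Bcl2* had the largest summed height of the family, 134 in *Parp14*-/-. Among 836 genes with a summed height of at least 50 in some library, the pattern most like it over the 4 libraries was that of *Nr4a3* and of a row named LOC100040788, a symbol not matched to that position in the annotation, which share 1 set of values, at 59, 57, 89 and 64, with a largest difference of 0.03 over the 3 log2 ratios to *Parp14*+/+. *Rgs1* came next, at 136, 123, 192 and 147, with a largest difference of 0.08.

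The wider pathway was read from 78 other genes of apoptosis, 65 of which had an accepted row and 55 an interval. In the untreated pair 10 of these 55 (18.2%, against 8.99% of all genes) were higher in *Parp14*-/- and 2 (3.64%, against 11.0%) in *Parp14*+/+. By the counting interval 2 genes passed in this pair, where 3.10% of all genes did. They were *Myc*, one of the 12, and *Pim1*, which was not, at 0.717 (0.515 to 0.995). In the PJ34 pair 2 (3.64%, against 4.58%) were higher in *Parp14*-/- + PJ34 and 4 (7.27%, against 19.8%) in *Parp14*+/+ + PJ34. After median scaling these were 4 (7.27%, against 9.57%) and 4 (7.27%, against 11.1%). The median ratio was 1 in the untreated pair and 1.13 in the PJ34 pair, close to those of all genes.

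The 10 were the anti-apoptotic *Bcl2a1b* and *Bcl2a1d*, the mitochondrial factor *Diablo*, the initiator caspase gene *Casp8*, *Ripk1* of the death receptor pathway, the transcription factor genes *Foxo1*, *Myc* and *Ddit3*, and *Bag6* and *Mapk8*. *Myc*, which drives growth and primes cells for apoptosis, stood at 40 with PARP-14 and 42 after PJ34, against 71 without PARP-14 and 62 after PJ34. Its ratio was 0.563 (0.373 to 0.842) in the untreated pair and 0.677 (0.447 to 1.02) in the PJ34 pair. *Bcl2a1b* stood at 5.75, 4.75, 8.5 and 7.25, with ratios of 0.677 (0.381 to 1.18) and 0.655 (0.347 to 1.21). *Myc* and *Bcl2a1b* were the pathway genes past the limit to the same side in both genotype pairs, and *Bcl2a1b* has near-identical copies in the mouse genome, so that its signal is uncertain.

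*Bnip3l*, at 1.42, and *Vdac2*, at 1.59, were higher in *Parp14*+/+ in the untreated pair. In the PJ34 pair *Bok*, *Diablo*, *Vdac1* and *Casp6*, at 2.33, 1.69, 1.67 and 1.69, were higher in *Parp14*+/+ + PJ34. Their heights were 7 against 3, 11 against 6.5, 10 against 6 and 22 against 13, and the counting interval of each ratio included 1. *Diablo*, which encodes an antagonist of the inhibitors of apoptosis, was thus on opposite sides in the genotype pairs, at 0.538 (0.260 to 1.07) untreated and 1.69 (0.816 to 3.66) with PJ34, and the difference was not tested.

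For PJ34 with PARP-14 present, *Diablo*, *Vdac1* and *Casp6* of the 55 genes (5.45%, against 9.23% of all genes) were higher with the inhibitor, at 0.636, 0.2 and 0.682. The ratio of *Vdac1* rests on low heights, 2 untreated and 10 with PJ34. *Bcl2l15*, *Vdac2*, *Nfkb1* and *Akt1* (7.27%, against 6.23%) were lower with it, at 1.43, 1.42, 1.44 and 1.55. Without PARP-14, *Bad*, *Tradd* and *Mdm2* (5.45%, against 4.01%) were higher with PJ34, at 0.563, 0.636 and 0.625, and 9 genes (16.4%, against 11.4%) were lower. Among the 9 were *Foxo1* at 2.12 (1.16 to 4.02), *Bcl2l15* at 1.588 (1.105 to 2.301) and *Ddit3* at 2.20 (0.9997 to 5.20). *Diablo* at 2 and *Casp6* at 1.615 were also among them, on the other side from cells with PARP-14, and the difference was not tested. After median scaling 8 genes (14.5%, against 6.64%) were lower and 3 (5.45%, against 6.82%) higher with PJ34. *Bad*, *Bcl2l15*, *Bag6* and *Mapk8* were taken from rows found by their position, under another symbol. The row of *Bcl2l15* had 1 active region, at 80, 56, 81 and 51, and whether that region reaches into a neighbour was not examined.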

How the data were processed

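RNA Polymerase II phosphoserine 2 ChIP-Seq was analysed in 4 libraries, 1 per condition. The authors mapped reads to mm9 with ELAND, removed duplicates, brought the libraries and Input to an equal number of uniquely mapped alignments, and called intervals with SICER against Input, per the study's methods and the submitters' processing notes. The deposited signal is the peak height, a pile-up of fragments, given per interval and, in a gene table, as an average over active regions merged across the 8 libraries of that table. Its 8 per-sample columns of libraries not analysed here were not used. Active regions thus depend on those libraries too. The deposited interval flag takes in intervals near a gene as well as those in it.

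Rows were accepted by symbol and position, or for listed genes other than the 9 by position alone (same strand, reciprocal overlap of at least 80%), against the GENCODE annotation of NCBIM37. This added 16 of the 65 pathway rows, because some symbols of the table belong to a gene elsewhere. Ratios were called above 1.4 or below 0.7 with an interval in the higher library. Intervals at 95% are exact Poisson for heights and exact binomial (Clopper-Pearson) for ratios; fragments piled at a point are not fully independent counts. The code was tested on simulated data. Python packages were numpy 2.4.6, pandas 2.3.3 and scipy 1.17.1.

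The genes named were the 9 members, *Parp14*, markers, pathway genes past the limits in a genotype pair or behind counts of 5 or fewer, neighbours that share values, active regions or an interval with a member, and the 3 rows most like the member with the largest summed height. The members and lists were chosen with earlier results of these data known. Alternatives changed the limits, scaling, readout, depth minimum and interval rule.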

Additional observations from a re-analysis of the deposited data

Results flagged for a closer look

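The genotype ratio lay on opposite sides of 1 without and with PJ34 for 3 of the 9 genes, a share close to the 34.8% of all genes. For *Bcl2l1* the *Parp14*+/+ to *Parp14*-/- ratio was 0.828 untreated and 1.4 with PJ34, and the first divided by the second was 0.591. Both ratios compare different points of *Bcl2l1*. The highest point lay 61879 bp from the gene start with PARP-14 and 61815 bp after PJ34, against 52503 bp without PARP-14 and 52375 bp after PJ34. For *Bak1* the ratios were 1.43 and 0.941, and the quotient 1.52. For *Bbc3* they were 0.909 and 2, and the quotient 0.455. Each condition had 1 library, the counting intervals of these ratios include 1, and the differences were not tested.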

How the results depend on the processing

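The main counts of members past the limits were 4 in the untreated genotype pair, 3 in the PJ34 genotype pair, 2 for PJ34 in *Parp14*+/+ and 1 for PJ34 in *Parp14*-/-. In that order, limits of 1.2 and 0.83 gave 7, 6, 4 and 4 of the 9 genes, against 44.4%, 48.1%, 39.7% and 35.9% of all genes. A minimum summed height of 50 gave 2, 0, 0 and 0, against 16.4%, 22.4%, 9.62% and 11.9% of all genes that reach it. Calling by a counting interval that leaves out 1 gave 2, 0 and 0 in the first 3 pairs, against 3.10%, 3.48% and 1.61% of all genes. Covered length gave 5 in the PJ34 genotype pair, 4 for PJ34 in *Parp14*+/+ and 3 for PJ34 in *Parp14*-/-, against 64.8%, 58.3% and 59.2% of all genes with cover in either library. Median scaling gave 1 for PJ34 in *Parp14*+/+ and 2 in *Parp14*-/-, against 16.4% and 13.5% of all genes. For PJ34 in *Parp14*-/- the tallest interval in the gene and no interval asked for also gave 2, and no share of all genes is given for these settings. Covered length gave 4 in the untreated genotype pair, the same count as the main limits, against 64.7% of all genes with cover in either library. These were not the same genes: *Bax* took the place of *Mcl1*, and *Bak1* was on the other side. The other counts lay within 1.5 times the main ones, as did the members' median ratios. The cause of these changes was not tested, apart from the minimum, which leaves *Mcl1* and *Bcl2* as the members deep enough to be called.

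For single members, the covered length of *Bak1* gave a ratio of 0 in the untreated genotype pair, the opposite side from its height, since no interval of *Parp14*+/+ reached the gene. Covered length gave no ratio where the second library had no cover. Median scaling and a pseudocount of 1 moved 0 of 36 ratios out of their counting intervals. The scale factors ran from 0.958 to 1.1 and were 1 for both untreated libraries, so the count for scaling cannot show stability. The pseudocount still brought *Bcl2* and *Bak1* within the limits in the untreated genotype pair. The tallest interval moved 2 of 27, both of *Bcl2* and both further below 1, and covered length moved 9 of 30 and reversed 1 more, that of *Bak1*. The 9 include *Mcl1* in the untreated genotype pair. Its whole length was covered in each library, so its covered length could only give a ratio of 1.

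An interval reached a member in 30 of 36 cases, in 31 with genes extended by 1 kb and in 29 with an overlap of at least 500 bp. Pathway calls were repeated with alternatives chosen after seeing the data. By the counting interval 2, 1, 4 and 2 genes passed in the order above, against 12, 6, 7 and 12 by the limits, where 3.10%, 3.48%, 1.61% and 1.66% of all genes passed by the counting interval. The genes of the untreated pair were *Myc* and *Pim1*. In the PJ34 genotype pair it was *Bcl2l12*, at 1.845 (1.123 to 3.1), with no interval in *Parp14*+/+ + PJ34. For PJ34 in *Parp14*+/+ they were *Bcl2l12*, at 0.542 (0.323 to 0.891), *Vdac1*, *Bcl2l15* and *Nfkb1*. In *Parp14*-/- they were *Foxo1* and *Bcl2l15*. Depth limits these results: for *Bak1*, at a height of 10 in *Parp14*+/+, the counting interval of the untreated genotype ratio ran from 0.686 to 3.06, past both limits.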
